A study of Lactuca sativa with 12 samples.

Results

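Superoxide dismutases (SODs) remove superoxide, and this group holds the genes for 3 of these enzymes and for the chaperone that loads copper into the copper-zinc ones. The 4 genes are a chloroplast iron SOD (LOC111905867), a copper-zinc SOD without a stated compartment (LOC111882980), a chloroplast copper-zinc SOD (LOC111897744) and the copper chaperone for SOD, CCS (LOC111898919). They were picked by gene ID from the 2264 genes that the authors' 6 tables of pairwise comparisons list together, and no other listed gene is described as a superoxide dismutase or its copper chaperone. Because each table lists only the genes called there (adjusted p below 0.05 together with more than 1 log2 unit of change), the calls themselves chose the members. Their levels are therefore a description, and the authors' p-values below are values of that choice and no independent test.

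RNA came from whole leaves of hydroponically grown lettuce (Lactuca sativa, cultivar Red oak-leaf) sampled at the 6-leaf stage, at 1.5 months. CdSeNP plants received cadmium at 10 mg/L and selenium nanoparticles at 3 mg/L, SeNP plants the nanoparticles alone at 3 mg/L, Cd plants cadmium alone at 10 mg/L, and CK plants neither. Each group has 3 libraries, which the series text calls biological replicates, and all 12 carry the same batch label. The labels give the cadmium dose both as cadmium and as a hydrated chloride, so the amount of the metal ion is uncertain.

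In plant leaves, superoxide arises mainly at the photosynthetic electron chain, and SODs turn it into hydrogen peroxide and oxygen. Iron SODs sit in the chloroplast, whereas copper-zinc SODs occur in both chloroplast and cytosol and depend on CCS for their copper. In Arabidopsis the balance between them follows copper supply. When copper is short, the transcription factor SPL7 raises an iron SOD and a microRNA that lowers the transcripts of copper-zinc SODs and CCS, and with ample copper the iron SOD falls and the copper-zinc enzymes rise.

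Library totals ran between 23.3 M reads (SeNP 3) and 31.4 M reads (Cd 2). CK 2 stood apart from the other controls: the chi-square of listed-gene counts, divided by its degrees of freedom, was 46.1 between CK 1 and CK 2 and 41.7 between CK 2 and CK 3, against 8.68 between CK 1 and CK 3 and at most 14.1 within any other group. Leaf markers were abundant. Summed over the 24 photosystem, antenna and Rubisco small-subunit genes with values in all libraries, they reached 11659 to 12154 FPKM (fragments scaled to gene length and library total) in CdSeNP, 28216 to 29022 in SeNP, 11933 to 12813 in Cd and 26242 to 27819 in CK. No gene in any table matched the 4 root marker terms (0 genes). Genes called in no comparison could not appear there, so this does not test for root RNA. The leaf markers too are genes called in some comparison. In bulk leaf RNA, fewer cells of a type and less RNA per cell cannot be told apart.

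The iron SOD had the largest change of the 4 genes. It lies on chromosome 8 (15473345 to 15483628, plus strand, Lsat_Salinas_v11), carries the iron/manganese SOD domain, and its RefSeq protein is marked as low quality in the deposited annotation. Its level was 130.5, 133.4 and 124.1 FPKM in CdSeNP, 23.4, 17.7 and 19.0 FPKM in SeNP, 140.0, 123.4 and 133.8 FPKM in Cd, and 139.1, 139.1 and 139.0 FPKM in CK. The 3 SeNP libraries were far below all 9 others and overlapped with none of them. The 3 controls were closer to each other than read counting alone would give, with an SD of 0.0899 FPKM against an expected counting SD of 2.19 FPKM from 3982 to 4066 reads each, so the control spread of this gene understates its error.

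The copper-zinc SOD LOC111882980 changed the opposite way. It lies on chromosome 6 (23227212 to 23229667, minus strand). Its level was 94.95, 100.7 and 107.6 FPKM in CdSeNP, 209.1, 229.1 and 256.1 FPKM in SeNP, 107.2, 124.7 and 120.1 FPKM in Cd, and 81.6, 85.9 and 69.9 FPKM in CK. All SeNP libraries were above all others, the CK libraries were the lowest, and CdSeNP and Cd overlapped.

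The chloroplast copper-zinc SOD LOC111897744 was the most abundant of the 3 enzymes' RNAs per length. It lies on the same chromosome (61124569 to 61127223, minus strand) and had 238.3, 255.7 and 260.3 FPKM in CdSeNP, 493.0, 514.6 and 465.7 FPKM in SeNP, and 192.1, 315.1 and 187.1 FPKM in CK. It has no values for Cd, since it was called in no comparison with that group. SeNP did not overlap with the other groups, and CK 2 was above the other controls and above all 3 CdSeNP libraries.

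CCS, which hands copper to the copper-zinc enzymes, lies on chromosome 6 as well (15767499 to 15769555, plus strand). It had 58.3, 56.7 and 53.0 FPKM in SeNP and 24.6, 30.1 and 24.2 FPKM in CK, and it was called in this comparison only, so the other groups have no values. The SeNP libraries all lay above the controls. Its right-hand neighbour starts 243 bases away and is in no table. Whether the authors' counting used strand is not given in the sources used here.

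**Figure D1:**
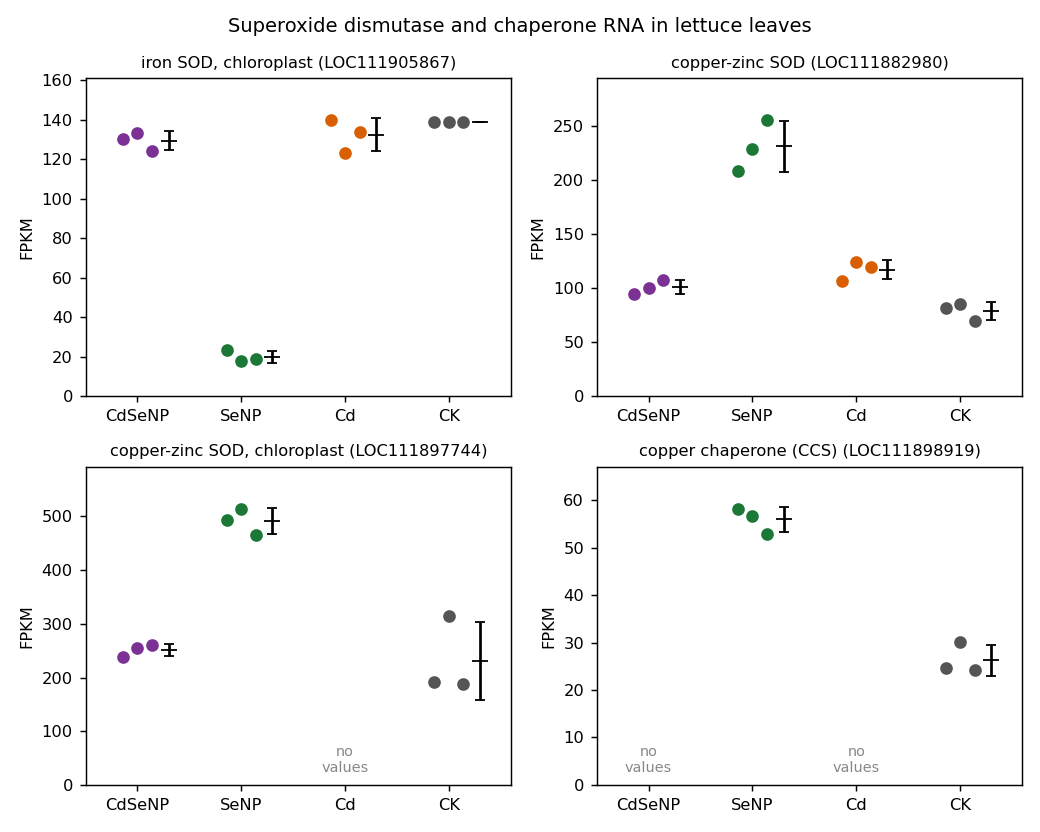
Level of each gene in FPKM (vertical axes from 0) in each library of CdSeNP, SeNP, Cd and CK. Points are libraries, and bars beside them are the mean and SD of 3 libraries. In SeNP the iron SOD lies between 17.7 and 23.4 FPKM, below all other groups, while the copper-zinc enzymes and CCS lie above theirs.

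SeNP against CK asks what the nanoparticles did to leaves without cadmium, and it is the only comparison in which all 4 members were called. The iron SOD was lower and the copper-zinc SODs and CCS were higher. The authors' table called 3.31% of 22656 genes tested (1.24% higher and 2.07% lower), and because the calls chose the members nothing is read from this share. The iron SOD fell to 19.99 ± 2.99 FPKM in SeNP, against 139.1 ± 0.0899 FPKM in CK (SD, n = 3 each), a 6.96-fold lower level. In the authors' deposited table the log2 fold change was -2.83 with a standard error of 0.12 worked back from the p-value, and DESeq2 gave it the smallest p of all genes tested (adjusted p = 9.3e-128).

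The copper-zinc SOD LOC111882980 rose to 231.4 ± 23.6 FPKM in SeNP, against 79.1 ± 8.25 FPKM in CK (SD, n = 3 each), which is 2.92-fold. Its log2 fold change in the authors' deposited table was 1.52 (standard error 0.11, DESeq2 adjusted p = 3.7e-40), and it ranked 9th by p. CCS ranked 26th there. It rose to 56.0 ± 2.72 FPKM in SeNP, against 26.3 ± 3.30 FPKM in CK, with a log2 fold change of 1.06 (standard error 0.11, DESeq2 adjusted p = 9.6e-21) in the authors' deposited table.

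The chloroplast copper-zinc SOD rose to 491.1 ± 24.5 FPKM in SeNP, against 231.4 ± 72.5 FPKM in CK (SD, n = 3 each). In the authors' deposited table its log2 fold change was 1.06 (standard error 0.17, DESeq2 adjusted p = 2.8e-08), and it and CCS were the members just inside the fold threshold. Placing CK 1 and CK 3 together at 0 and the SeNP mean at 1 on a log2 scale, CK 2 lay at 0.534 for this gene, 0.253 for CCS and 0.115 for LOC111882980. In edgeR refits its log2 value was 0.95 without CK 1 and 0.94 without CK 3, under the fold threshold, and 1.32 without CK 2. The part of CK 2 in these values was otherwise not tested.

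The same genes separated SeNP from CdSeNP, a comparison that asks what cadmium did in the presence of nanoparticles. Here 3 members were called in the authors' table, beside 3.87% of 22862 genes tested (3.24% higher and 0.625% lower), a share from which again nothing is read. The iron SOD rose to 129.3 ± 4.79 FPKM in CdSeNP, against 19.99 ± 2.99 FPKM in SeNP (SD, n = 3 each). The log2 fold change was 2.65 in the authors' deposited table (standard error 0.08, DESeq2 adjusted p = 8.3e-237).

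Both copper-zinc SODs fell in CdSeNP. LOC111882980 averaged 101.1 ± 6.34 FPKM in CdSeNP and 231.4 ± 23.6 FPKM in SeNP, with a log2 fold change of -1.24 (standard error 0.07, DESeq2 adjusted p = 5.9e-70) in the authors' deposited table. LOC111897744 averaged 251.4 ± 11.6 FPKM in CdSeNP and 491.1 ± 24.5 FPKM in SeNP, with -1.01 (standard error 0.05, DESeq2 adjusted p = 1.6e-89) in the authors' deposited table. The call of LOC111897744 sat at the fold threshold and ended in edgeR refits without CdSeNP 1 (log2 -0.97), without SeNP 2 (-0.95) and with library totals as scaling (-0.97). CCS was not called in this comparison.

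SeNP against Cd sets the treatments beside each other. Of the 2 members called, the iron SOD was lower and LOC111882980 higher, where 2.18% of 22978 genes tested were called (0.67% higher and 1.51% lower) and nothing is read from that share. The iron SOD had 19.99 ± 2.99 FPKM in SeNP and 132.4 ± 8.36 FPKM in Cd, with a log2 fold change of -2.63 (standard error 0.14, DESeq2 adjusted p = 5.4e-75) in the authors' deposited table. LOC111882980 had 231.4 ± 23.6 FPKM in SeNP and 117.3 ± 9.07 FPKM in Cd, with 1.08 (standard error 0.07, DESeq2 adjusted p = 1.2e-50) in the authors' deposited table. With library totals as scaling its log2 value was 0.98 and the call ended.

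In the comparisons without SeNP alone, 0 members were called with the authors' DESeq2. There the authors called 2.57% of genes in CdSeNP against CK (1.25% higher and 1.33% lower), 4.85% in Cd against CK (3.47% higher and 1.39% lower) and 1.87% in CdSeNP against Cd (1.09% higher and 0.788% lower). The values of members that have both groups were refitted with edgeR's quasi-likelihood test over all genes with values in both groups, 900, 1363 and 902 genes. Each of these genes is listed because it was called in some comparison, so the adjusted p-values are lenient. At an unadjusted p under 0.05, edgeR counted 1 member, LOC111882980 in Cd against CK. DESeq2 counted it there (adjusted p = 0.01) and in CdSeNP against Cd (adjusted p = 0.057).

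In Cd against CK, LOC111882980 averaged 117.3 ± 9.07 FPKM in Cd and 79.1 ± 8.25 FPKM in CK (SD, n = 3 each) without overlap, a log2 value of 0.45 (standard error 0.17, edgeR adjusted p = 0.03). This value was outside the fold threshold of the tables, and without any one library other than CK 2 its edgeR adjusted p lay between 0.057 and 0.11. The iron SOD averaged 132.4 ± 8.36 FPKM in Cd and 139.1 ± 0.0899 FPKM in CK with overlap (log2 -0.19, standard error 0.13, edgeR adjusted p = 0.21). With library totals edgeR gave the iron SOD -0.07 (adjusted p = 0.61) and LOC111882980 0.57 (adjusted p = 0.011). Scaled by TMM over the fitted genes, edgeR gave the iron SOD -0.87 (adjusted p = 0.0046) and LOC111882980 -0.24 (adjusted p = 0.36). Every fitted gene was called in some comparison, and 799 of the 1119 genes called in Cd against CK were higher. TMM takes most genes as unchanged, so it cannot decide here whether either value depends on the scaling.

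In CdSeNP against CK, LOC111882980 averaged 101.1 ± 6.34 FPKM in CdSeNP and 79.1 ± 8.25 FPKM in CK (log2 0.27, standard error 0.14, edgeR adjusted p = 0.13). The chloroplast copper-zinc SOD had 251.4 ± 11.6 FPKM in CdSeNP and 231.4 ± 72.5 FPKM in CK, with overlap (log2 0.04, standard error 0.19, edgeR adjusted p = 0.88). The iron SOD had 129.3 ± 4.79 FPKM in CdSeNP and 139.1 ± 0.0899 FPKM in CK (log2 -0.19, standard error 0.11, edgeR adjusted p = 0.15). For LOC111882980 and the iron SOD these groups did not overlap, but the control spread of the iron SOD understates its error. How many of the listed genes did not overlap was counted for no comparison. Without CK 2 the log2 value was 0.31 for LOC111882980 (edgeR adjusted p = 0.015), 0.30 for the chloroplast copper-zinc SOD (edgeR adjusted p = 0.0034) and -0.21 for the iron SOD (edgeR adjusted p = 0.023). With library totals LOC111882980 had 0.35 (edgeR adjusted p = 0.047), and with TMM the iron SOD had -0.32 (edgeR adjusted p = 0.026).

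In CdSeNP against Cd the iron SOD averaged 129.3 ± 4.79 FPKM in CdSeNP and 132.4 ± 8.36 FPKM in Cd (log2 0.01, standard error 0.07, edgeR adjusted p = 0.91). LOC111882980 averaged 101.1 ± 6.34 FPKM in CdSeNP and 117.3 ± 9.07 FPKM in Cd (log2 -0.17, standard error 0.08, edgeR adjusted p = 0.083). Both genes overlapped between the groups. For LOC111882980 the edgeR adjusted p was 0.045 with the replicate number as a block, 0.036 with library totals and 0.033 without Cd 1.

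**Figure D2:**
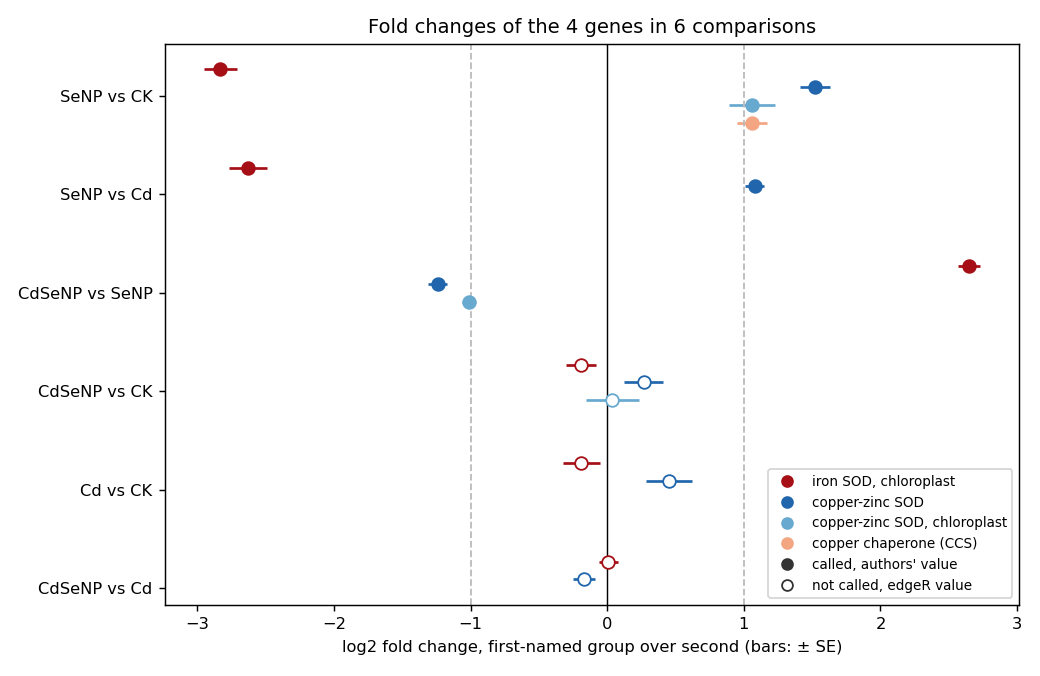
Log2 fold changes of the first-named over the second group (horizontal axis) in the 6 comparisons, with bars of 1 SE. Filled points are the authors' values of called genes and open points edgeR values of genes not called, and dashed lines mark the fold threshold. Members pass the lines only where SeNP alone is one of the groups.

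The effect of each agent was set beside its effect in the presence of the other for the 2 genes measured in all 12 libraries. On the log2(FPKM + 1) scale, the iron SOD differed by 2.64 between CdSeNP and SeNP, and by -0.07 between Cd and CK. The difference of these effects was 2.72 (standard error 0.13, n = 12). For LOC111882980 the values were -1.18 with nanoparticles and 0.56 without, a difference of -1.75 (standard error 0.15). Seen from the nanoparticles, the iron SOD differed by -0.03 between CdSeNP and Cd and by -2.75 between SeNP and CK. These are descriptions, since the genes were chosen from the same groups.

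The make-up of the 3 SOD RNAs differed accordingly. The iron SOD's share of the summed FPKM of the 3 enzymes was 26.9% ± 1.50 in CdSeNP, 2.70% ± 0.466 in SeNP and 31.5% ± 5.03 in CK (SD, n = 3 each). The sum itself was 481.9 ± 15.7 FPKM in CdSeNP, 742.5 ± 18.0 FPKM in SeNP and 449.6 ± 78.9 FPKM in CK, so this sum was highest in SeNP although the iron SOD was lowest there. It is not the total of all SOD RNA, since SOD genes called in no comparison have no values here. The share could not be had in Cd for want of the chloroplast copper-zinc SOD.

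Ratios between members can be compared within a library. LOC111882980 over the iron SOD was 0.783 ± 0.0741 in CdSeNP, 11.8 ± 2.49 in SeNP, 0.891 ± 0.122 in Cd and 0.569 ± 0.0590 in CK (SD, n = 3 each). CCS over the 2 copper-zinc SODs was 0.0776 ± 0.00493 in SeNP and 0.0863 ± 0.009996 in CK, and the libraries of these groups overlapped. The chloroplast over the other copper-zinc SOD was 2.49 ± 0.0628 in CdSeNP, 2.14 ± 0.285 in SeNP and 2.90 ± 0.686 in CK, with CK 2 highest at 3.67.

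**Figure D3:**
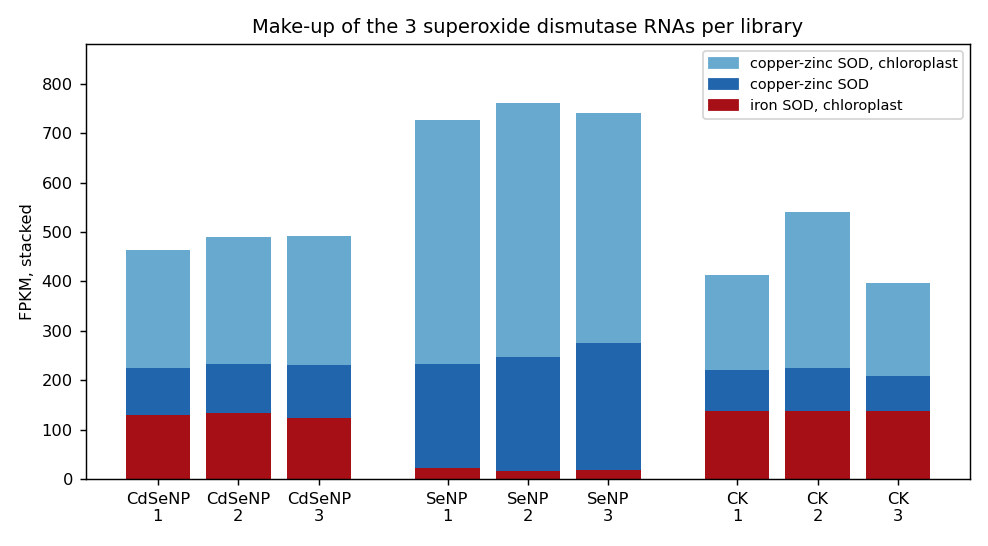
Stacked FPKM (vertical axis from 0) of the 3 SOD RNAs in each library of CdSeNP, SeNP and CK. In SeNP the iron SOD takes 2.32% to 3.22% of the stack, against 25.8% to 35.1% in CK.

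Across the 12 libraries the iron SOD and LOC111882980 had a Pearson correlation of -0.933 on the log2(FPKM + 1) scale. Over the 9 libraries with values, the copper-zinc SODs correlated at 0.937 with each other. Libraries share groups, so these values mostly describe group levels. The same measure was used to find the genes most like each member among the 239 others with values in all 12 libraries and a mean of at least 5 FPKM.

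The iron SOD was most like glycine-rich domain-containing protein 1 (LOC111900248, r = 0.99), copper transporter 5 (LOC111893192, r = 0.982) and a locus without a description in the files (r = 0.971). Copper transporter 5, which in Arabidopsis releases copper from the vacuole, averaged 131.2 ± 3.80 FPKM in CdSeNP, 47.1 ± 7.68 in SeNP, 124.6 ± 8.53 in Cd and 148.6 ± 10.3 in CK (SD, n = 3 each). LOC111900248 averaged 250.5 ± 8.46 FPKM in CdSeNP, 73.0 ± 7.27 in SeNP, 239.3 ± 16.6 in Cd and 279.2 ± 28.6 in CK. Both were thus lowest in all 3 SeNP libraries. Without CK 2, 1 of these 3 genes remained among the nearest 3.

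LOC111882980 was most like a chloroplast polyphenol oxidase (LOC111905063, r = 0.972), basic blue protein (LOC111904155, r = 0.906) and blue copper protein (LOC111911682, r = 0.77). Basic blue and blue copper proteins are small copper-binding proteins, and polyphenol oxidases use copper to oxidise phenolics. The polyphenol oxidase averaged 131.3 ± 11.4 FPKM in CdSeNP, 319.6 ± 18.3 in SeNP, 168.3 ± 17.1 in Cd and 90.2 ± 21.6 in CK (SD, n = 3 each). CK 2 lay towards the SeNP level in this gene too, at 0.278 on the scale above, and at 0.413 for basic blue protein.

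**Figure D4:**
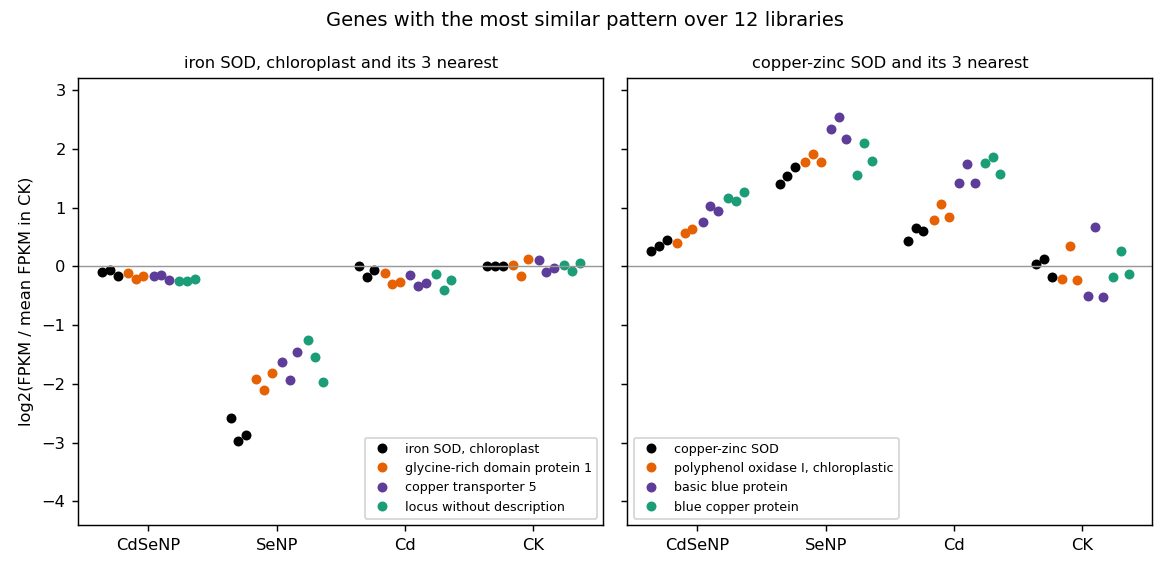
Log2 of FPKM relative to the CK mean (vertical axis, 0 is the CK mean) for the iron SOD and LOC111882980, each with its 3 most similar genes, by group. Points are libraries. The iron SOD and its 3 neighbours in pattern lie lowest in SeNP, while the copper-zinc SOD and polyphenol oxidase lie highest there.

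Other genes of copper, peroxide and iron chemistry were counted from lists of words in the gene descriptions. Every gene on these lists was called in at least 1 comparison, since no other genes are in the tables. On the list of copper proteins, 13 of the 26 genes in any table were called in SeNP against CK, 7 higher and 6 lower, beside 750 of all 2264 listed genes, 282 higher and 468 lower. The median log2 fold change of the called genes, 1.01 on the list and -1.09 over the table, only follows these splits, since every call lies beyond 1 in either direction. The higher ones included basic blue protein (73.7 ± 9.59 FPKM in SeNP and 14.3 ± 7.38 in CK), blue copper protein (8.70 ± 1.63 in SeNP and 2.44 ± 0.437 in CK) and the polyphenol oxidase above. Basic blue and blue copper protein were also called higher in Cd against CK, with log2 fold changes of 1.43 and 1.62. Blue copper protein had 8.14 ± 0.807 FPKM in Cd. Cucumber peeling cupredoxins were among the 6 lower ones, at log2 fold changes of -1.24 (LOC111881903), -1.06 (LOC111881904), -1.55 (LOC111881909) and -1.51 (LOC111881910). The others were laccase-15 (LOC111875988, -1.29) and a second polyphenol oxidase, LOC111905064. This polyphenol oxidase fell to 0.669 ± 0.0647 FPKM in SeNP, against 1.98 ± 0.639 in CK. The cupredoxins and laccase-15 were named after their values were seen. In CdSeNP against SeNP 19 copper protein genes were called, 8 higher and 11 lower, beside 884 of all listed genes, 741 higher and 143 lower.

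On the list of copper and zinc transport and balance, 10 of the 34 genes in any table were called in SeNP against CK. The whole set of 2264 genes had 750 calls there, 282 higher and 468 lower. Leucine zipper matches made up 8 of the 34. The 10 called genes, 2 higher and 8 lower, had a median log2 fold change of -1.08, beside -1.09 for the 750. The 2 higher ones, protein LITTLE ZIPPER 1 and HDG11, matched by the letters of leucine zipper and are not metal genes, so no metal gene of the list was higher. Zinc transporter 1 (LOC111880346), of a family that brings zinc and other metals into cells, fell to 1.84 ± 0.369 FPKM in SeNP, against 18.3 ± 0.936 in CK. The metal-nicotianamine transporters YSL3 fell as well, LOC111920401 to 26.2 ± 2.92 FPKM in SeNP, against 80.7 ± 10.7 in CK, and LOC111876026 to 3.09 ± 0.249 FPKM in SeNP, against 8.93 ± 0.907 in CK. LOC111920401 was also called lower in Cd against CK, with a log2 fold change of -1.13. Without the leucine zipper matches, 12 genes of the list were higher and 1 lower in CdSeNP against SeNP, a split like that of the whole table given above. In SeNP against Cd 0 were higher and 12 lower, beside 154 higher and 347 lower over the table. These counts include squamosa promoter-binding genes, matched by family name alone and named after their values were seen. LOC111921391 was among the 12 higher in CdSeNP against SeNP, where LOC111906023 was the 1 lower. Both LOC111921391 and LOC111896001 were among the 12 lower in SeNP against Cd.

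The gene described as squamosa promoter-binding-like protein 7 (LOC111906023), the name of the Arabidopsis copper regulator, was chosen after its values were seen. It had 2.63 ± 0.196 FPKM in CdSeNP, 5.63 ± 0.349 in SeNP and 7.62 ± 0.276 in CK (SD, n = 3 each). It was called lower in CdSeNP against CK and against SeNP, and was not called in SeNP against CK. The SeNP and CK libraries did not overlap, which was not counted over other genes. For Cd this gene has no values.

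**Figure D5:**
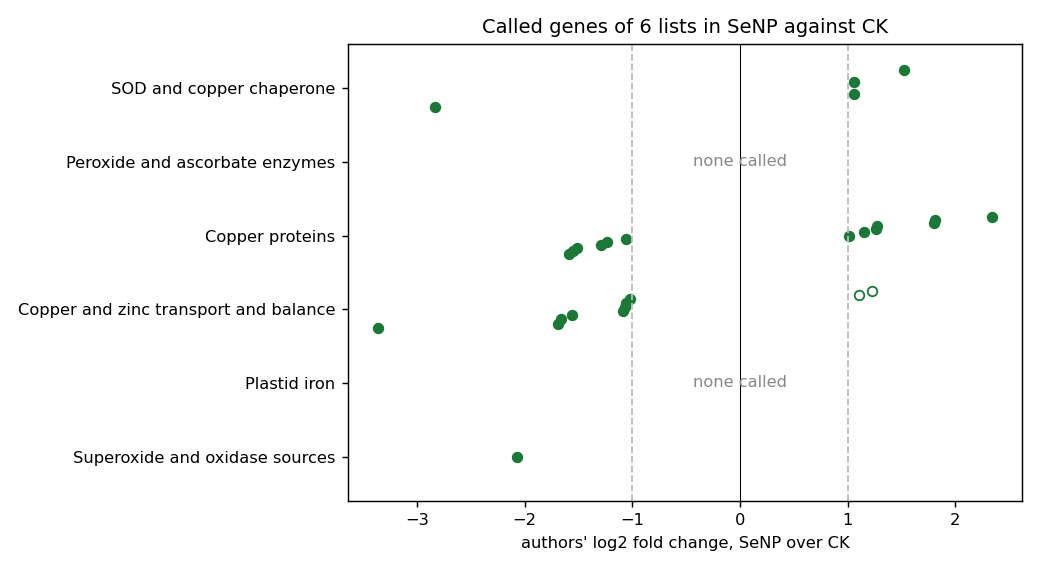
Authors' log2 fold change of SeNP over CK (horizontal axis) for every called gene of 6 lists, 1 point a gene. Open points are the 2 leucine zipper matches, and dashed lines mark the fold threshold. The SOD and copper protein lists have genes on both sides, and the filled points of the transport list lie only on the lower side.

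The list of peroxide and ascorbate enzymes has 8 genes in the tables, of which 5 are glutaredoxins or a thioredoxin-like protein. Of the 8, 0 were called in SeNP against CK, where 750 of all 2264 listed genes were. In each other comparison 1 or 2 were called, beside 433 to 1119 of the 2264 listed genes. Genes of this kind that were called nowhere are not in the tables. A catalase (LOC111878431), which breaks down hydrogen peroxide, was called lower in CdSeNP against CK with a log2 fold change of -1.26 in the authors' deposited table. So was a cytosolic ascorbate peroxidase (LOC111897082), at -1.06. Both were named after their values were seen.

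Plastid iron genes were called in the opposite direction to the iron SOD in SeNP against Cd and CdSeNP against SeNP. All 5 genes of that list, 3 ferritins, NEET and a subunit of succinate dehydrogenase that is mitochondrial, were called lower in Cd against CK and in CdSeNP against CK and CdSeNP against SeNP, and higher in SeNP against Cd. In SeNP against CK and CdSeNP against Cd 0 of them were called, where 750 and 433 of all 2264 listed genes were. Over the whole tables, 320 of 1119 called genes were lower in Cd against CK and 303 of 588 in CdSeNP against CK. In CdSeNP against SeNP 143 of 884 were lower, and in SeNP against Cd 154 of 501 were higher. On the list of oxidases, the alternative oxidase ubiquinol oxidase 2 (LOC111897513) had 16.2 ± 0.637 FPKM in CdSeNP, 5.09 ± 0.184 in SeNP, 41.0 ± 4.52 in Cd and 20.9 ± 2.34 in CK. It was called lower in SeNP against CK and SeNP against Cd, higher in CdSeNP against SeNP and lower in CdSeNP against Cd.

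The genes next to each member were looked up among the called genes. The 6 tables together list 2264 genes, where 22656 to 23096 were tested in each comparison, and nothing is read from the counts below. Of the 20 protein-coding genes nearest to the iron SOD on chromosome 8, 1 was in a table, receptor-like protein EIX2 (LOC111905858). Like the iron SOD, EIX2 was called lower in SeNP against CK (log2 fold change -1.68, DESeq2 adjusted p = 0.00059). Around each of the 3 genes on chromosome 6, 0 of the nearest 20 were in any table.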

How the data were processed

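Per the labels' protocols, poly(A)-selected whole-leaf RNA went through a TruSeq preparation and Illumina sequencing. The submitters' processing notes name DESeq2 1.34.0, StringTie 2.2.1, HISAT2 2.2.1, fastp 0.23.0 and Trimmomatic, with no role or order. The counting program, strand setting and genome build were not given in the sources used here. Per the file headers, the deposited tables hold raw read counts and FPKM for each gene and library. The authors' 6 tables also hold the log2 fold change of the first-named over the second group, its p-value and the adjusted p-value, for called genes only. The tables hold 2264 genes, 575 of them with values in all 12 libraries. Values of a gene and library differed between tables in 0 cases. All 4 members had the same start and end in RefSeq Lsat_Salinas_v11, from which chromosome numbers were taken.

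The members and gene lists were chosen with earlier results of these data known. Calls are the authors', because a fit over all genes could not be made. Ratios of adjusted to raw p gave how many genes were tested, and library totals from genes with at least 200 counts, through their FPKM and length. The authors' scaling was recovered from counts and fold changes (median residual at most 0.001 log2). Their log2 values differ from library totals by -0.031 (SeNP against CK) to 0.101 (SeNP against Cd), and by -0.119 in Cd against CK. Refits used edgeR 4.0.16 and DESeq2 1.42.0 on the counts, in R 4.3.3, and were tested on simulated data. Refits over genes with values in both groups, used for members a table does not list, were added after seeing the data. Named genes were the members, the 3 most alike genes of each member with 12 libraries, and up to 4 genes per list with the largest change in SeNP against CK, plus those said to be named after their values were seen. The likeness rule needs 12 libraries and was not applied to LOC111897744 and CCS. With 3 libraries against 3 an exact two-sided permutation test cannot go below 0.1, and none was run. Reads shared between copies or overlapping genes make single values uncertain.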

Additional observations from a re-analysis of the deposited data

Results flagged for a closer look

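Only the members with values in all 12 libraries and the genes most like them were looked at here. Of these, 6 had all Cd libraries on one side of CK and all CdSeNP libraries on the opposite side of SeNP. On the FPKM scale the difference with cadmium thus had opposite signs with and without nanoparticles. The like genes were picked for sharing the members' pattern. How many of the 575 genes with values in all 12 libraries do the same was not counted. Nothing particular to these 6 is therefore read from their number. Zinc transporter 1 (LOC111880346), outside this set, had opposite signs too. For LOC111882980 the Cd against CK value was 0.45 in edgeR and -0.24 with TMM, which was run only over genes called in some comparison. Its adjusted p in edgeR lay between 0.057 and 0.11 without any one library other than CK 2. The differences between these effects on the log2(FPKM + 1) scale, which were not tested, were -1.75 for the copper-zinc SOD LOC111882980, -2.19 for polyphenol oxidase LOC111905063, -2.98 for basic blue protein LOC111904155 and -1.97 for blue copper protein LOC111911682. They were 1.72 for copper transporter 5 (LOC111893192) and 1.55 for the locus without a description that is among the 3 genes most like the iron SOD. The iron SOD, whose Cd and CK libraries overlap, and LOC111900248, at 1.99, do not belong to the 6.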

How the results depend on the processing

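The iron SOD kept its direction and its call in SeNP against CK, SeNP against Cd and CdSeNP against SeNP under edgeR, DESeq2, library totals, TMM, the low-count filter, the replicate number as a block and each left-out library. Members called ranged from 3 to 4 in SeNP against CK and from 2 to 3 in CdSeNP against SeNP without single libraries. They stayed at 2 in SeNP against Cd, and were 1 there with library totals, on either set of genes. With a threshold of 2 log2 units, 1 member was called in each of these comparisons, as was 1 gene each on the lists of SODs, copper proteins and metal transport in SeNP against CK. With the replicate block 4, 2 and 3 members were called in SeNP against CK, SeNP against Cd and CdSeNP against SeNP, and 0 in the others. Deviations from the group mean correlated above 0.1 in 12 of 18 pairs of same-numbered libraries (correlations from -0.39 to 0.48). The median was 0.15 for these pairs, against -0.11 for libraries of different number. The main values did not take the numbers as pairs, and the replicate block is given beside them. The difference of the Cd effects ran from 2.63 to 2.83 for the iron SOD and from -1.82 to -1.66 for LOC111882980 without single libraries. Of the 3 genes most like the iron SOD, 1 to 3 remained without single libraries, and of those most like LOC111882980, 2 to 3. In Cd against CK, LOC111882980 turned to -0.24 (edgeR adjusted p = 0.36) with TMM over the 1363 listed genes. All of these were called in some comparison, whereas TMM takes most genes as unchanged, and the cause was not tested. TMM over listed genes gave the iron SOD -2.24 in SeNP against CK, -1.52 in SeNP against Cd and 1.38 in CdSeNP against SeNP, and LOC111882980 2.10, 2.18 and -2.51 in these comparisons. It gave LOC111897744 1.64 in SeNP against CK and -2.29 in CdSeNP against SeNP, and CCS 1.65. In Cd against CK it gave the iron SOD -0.87 (edgeR adjusted p = 0.0046). Refits over listed genes alone gave no value for members a table does not list.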
